A study of Homo sapiens with 4 samples.

Results

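Transcript levels of the enzymes of glycolysis, the pentose phosphate pathway and the citrate cycle were followed in K562 cells after knockdown of PHF8. The genes were taken by symbol from a list of 48 that also holds lactate dehydrogenases, pyruvate dehydrogenase kinases, ATP citrate lyase and EGLN3. Of these, 46 were in the expression table, out of 11213 gene names in all, and PDK2 and PDK3 were not analysed here. The 46 genes comprised 197 transcript rows, which were summed per gene.

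K562 is a human cell line of chronic myelogenous leukaemia that carries the BCR-ABL1 fusion and expresses embryonic and foetal globins. PHF8 is a histone demethylase that acts on methylated lysines of histones H3 and H4, and the study asked how it functions in this leukaemia. In the shPHF8 group (2 libraries) the cells had received a lentivirus with a hairpin RNA against PHF8, and in the shControl group (2 libraries) a lentivirus with a control hairpin. Both groups were selected with puromycin at 2 µg/ml, started 72 hours after transduction, and no other allele or agent was given for either. The labels do not say whether the libraries numbered 1 and 2 came from separate cultures or from different hairpins, so the p-values measure the spread between these libraries only.

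Glycolysis converts glucose to pyruvate, which lactate dehydrogenase reduces to lactate or the pyruvate dehydrogenase complex converts to acetyl-CoA in mitochondria. The pentose phosphate pathway branches off at glucose 6-phosphate and yields NADPH and ribose 5-phosphate, and the citrate cycle oxidises acetyl-CoA. In proliferating cells part of the citrate leaves the mitochondrion and is split by ATP citrate lyase to supply acetyl-CoA for lipids and histone acetylation.

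PHF8 itself stood at 6.06 and 6.42 TPM (transcript abundance scaled to a fixed total per library) in the shPHF8 libraries, against 25.9 and 22.5 TPM in the shControl libraries, or 25.8% of the control level. All 11 erythroid markers that define K562 were in the table, 8 (72.7%) were higher at an unadjusted limma p under 0.05, as were 9.90% of all genes tested, and their summed level was 17676 and 16856 TPM in shPHF8 against 11027 and 11926 TPM in shControl. GATA1, the erythroid transcription factor of this list, lay the other way at 311 and 307 TPM in shPHF8 against 339 and 343 TPM in shControl. Of the 12 granulocyte and monocyte markers 5 were listed, and they summed to 83.1 and 77.9 TPM in shPHF8 against 143 and 161 TPM in shControl. The megakaryocyte markers (4 of 7 listed) summed to 48.3 and 50.8 TPM in shPHF8 against 24.0 and 30.0 TPM in shControl. Most of that sum was TUBB1, at 35.4 and 34.9 TPM in shPHF8 against 11.03 and 13.2 TPM in shControl, whereas PLEK of the same list was listed at 0 and at 0.205 TPM in shPHF8 against 2.75 and 5.04 TPM in shControl. The lymphocyte markers (2 of 6), mostly CD3D, summed to 15.6 and 10.98 TPM in shPHF8 against 30.4 and 34.4 TPM in shControl. The stromal and endothelial markers (3 of 6), nearly all of it VIM, summed to 303 and 306 TPM in shPHF8 against 507 and 500.3 TPM in shControl. CD14, MPO, GP9, PF4 and PECAM1 were not among the listed genes, and PPBP was listed at 0 in 3 of the 4 libraries. The part of these marker shifts in the results below was not tested.

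As a whole the enzyme genes split nearly evenly between the directions. Each gene was tested with limma on log2(TPM + 1) over the 10972 genes that averaged 1 TPM or more, and a log2 fold change is shPHF8 minus shControl there. After Benjamini-Hochberg adjustment limma called none of the 46 genes and none of all genes tested (0%) at 0.05. At an unadjusted p under 0.05, 7 of the 46 were higher and 6 were lower in shPHF8, where 9.90% of all genes tested were higher and 12.1% lower. Together these 13 were 28.3% of the enzyme genes, against 22.0% of all genes. In 29 of the 46 (63.0%) the shPHF8 and shControl libraries did not overlap, with shPHF8 higher in 15 and lower in 14, where the groups did not overlap in 55.3% of all genes (26.0% higher and 29.3% lower). The median log2 fold change was 0.064 over the enzyme genes and -0.018 over all genes tested. Without shPHF8 2 the count at an unadjusted p under 0.05 was 10 enzyme genes (21.7%), beside 13.6% of all genes. Below, "higher" and "lower" stand for this unadjusted threshold, and every other gene is given by its values. In bulk RNA, fewer cells of a type and less RNA per cell cannot be told apart.

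**Figure D1:**
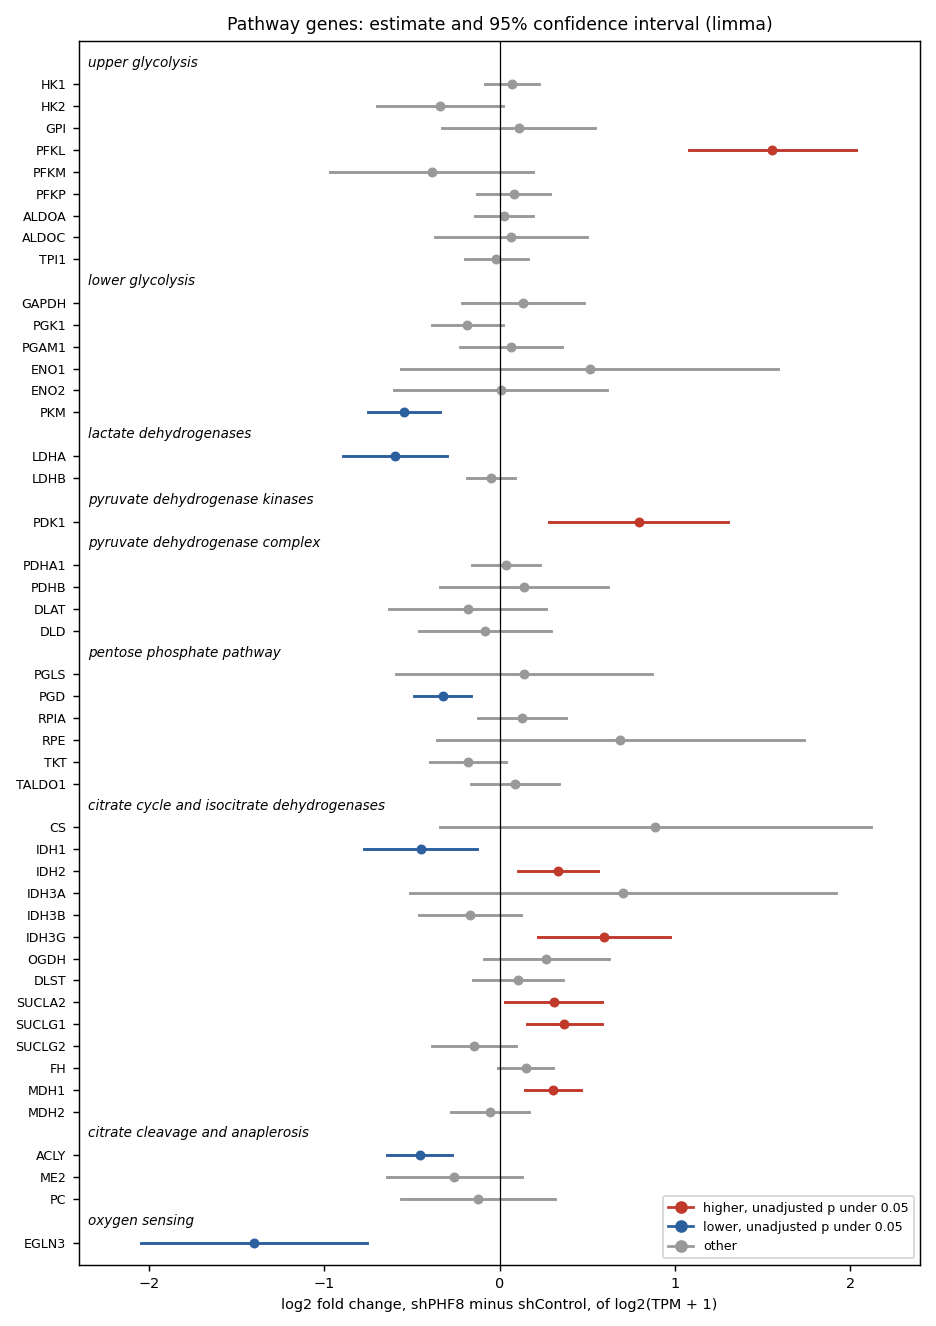
Log2 fold change of each of the 46 genes, shPHF8 minus shControl in log2(TPM + 1) (x axis), grouped by role, with the 95% confidence interval from limma as a bar. PFKL lies farthest to the right at 1.55 and EGLN3 farthest to the left at -1.40, and most other intervals include 0.

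**Figure D2:**
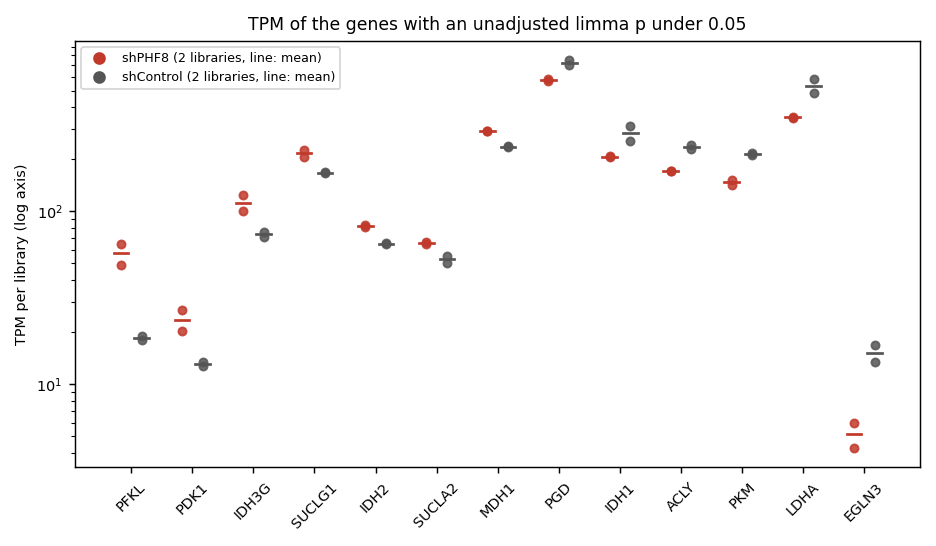
TPM per library on a log axis for the 13 genes with an unadjusted limma p under 0.05, with shPHF8 left of shControl for each gene, points for libraries and a line for the mean. In all 13 genes the libraries of the groups do not overlap.

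In order of abundance, the enzyme transcripts were led by mean in both groups by the enolase gene ENO1, although LDHB lay above it in shControl 1. LDHB was at 1148 and 1096 TPM in shPHF8 against 1143 and 1178 TPM in shControl. GAPDH and TPI1 came next, and their ranges overlapped each other as well as between the groups. At the low end PC, the pyruvate carboxylase gene, was at 10.4 and 12.01 TPM in shPHF8 against 12.5 and 12.1 TPM in shControl. The 46 genes together made up 1.27% and 1.21% of all TPM in shPHF8 and 1.12% and 1.27% in shControl, so the total overlapped between the groups.

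Among the genes of upper glycolysis, from hexokinase to triose phosphate isomerase, PFKL was higher in shPHF8 and the other 8 did not pass the unadjusted threshold. PFKL (ENSG00000141959) encodes the liver-type subunit of phosphofructokinase, the enzyme of the committed step of glycolysis. It was at 65.1 and 49.2 TPM in shPHF8, against 18.1 and 19.1 TPM in shControl. Both knockdown libraries lay above both controls, with means of 57.2 ± 11.3 and 18.6 ± 0.682 TPM in shPHF8 and shControl (SD, n = 2 each). The log2 fold change of 1.55 ± 0.17 (SE) had a 95% confidence interval from 1.08 to 2.03 and missed the adjusted threshold (limma, Benjamini-Hochberg adjusted p = 0.0696).

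Both listed PFKL transcripts lay above both controls in both knockdown libraries, but only PFKL-201 passed the unadjusted threshold. PFKL-001 was at 44.8 and 24.0 TPM in shPHF8, against 18.1 and 19.1 TPM in shControl. Its log2 fold change of 0.79 ± 0.36 (SE) had an interval from -0.26 to 1.83. PFKL-201 was at 20.4 and 25.2 TPM in shPHF8 and was listed at 0 in both shControl libraries. It thus made up 31.2% and 51.2% of PFKL in the knockdown libraries, while PFKL-001 was all of PFKL in the controls. No fold is given for PFKL-201 (limma, Benjamini-Hochberg adjusted p = 0.0913 over 30266 transcripts), and without PFKL-201 the libraries of the groups still did not overlap.

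The other phosphofructokinase genes did not pass. PFKM, the muscle-type gene, was at 43.5 and 29.9 TPM in shPHF8, against 49.6 and 45.5 TPM in shControl, and its log2 fold change of -0.39 ± 0.21 (SE) had an interval from -0.97 to 0.19. The PFKM estimate was -0.12 without shPHF8 2, and -0.65 without shPHF8 1. Within the gene, transcript PFKM-005 was at 23.6 and 13.8 TPM in shPHF8 against 41.1 and 40.1 TPM in shControl, or 54.1% and 46.1% in shPHF8 against 82.9% and 88.0% in shControl of the gene. PFKP, the platelet-type gene and the most abundant of the 3, was at 105 and 109 TPM in shPHF8 and at 101 TPM in each shControl library. PFKL accordingly made up 30.5% and 26.2% of all phosphofructokinase TPM in shPHF8, against 10.7% and 11.5% in shControl, and the 3 genes summed to 213 and 188 TPM in shPHF8 against 169 and 166 TPM in shControl. The groups did not overlap in either measure.

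The hexokinases phosphorylate glucose on entry to the cell. HK1, the main hexokinase gene here, was at 601 and 626 TPM in shPHF8, against 597 and 573 TPM in shControl. HK2, the form often induced in tumours, was at 40.3 and 37.0 TPM in shPHF8 against 45.2 and 53.3 TPM in shControl, with a log2 fold change of -0.34 ± 0.13 (SE) and an interval from -0.70 to 0.022. Its ratio to HK1 was 0.0671 and 0.0591 in shPHF8 and 0.0758 and 0.0929 in shControl, without overlap. The isomerase and aldolase genes GPI, ALDOA, ALDOC and TPI1 overlapped between the groups, with log2 fold changes from -0.019 to 0.11. For ALDOA and TPI1, as for GAPDH, PGK1, PGAM1, ENO1, PKM, LDHA and LDHB below, near-identical pseudogene copies exist, and how reads shared with them were assigned is not given in the sources used here.

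In lower glycolysis, from glyceraldehyde 3-phosphate to pyruvate, PKM was lower in shPHF8 and the other 5 genes did not pass. PKM (ENSG00000067225) encodes the pyruvate kinase of most tissues, which catalyses the last step and forms pyruvate and ATP. It was at 153 and 142 TPM in shPHF8, against 219 and 212 TPM in shControl, and both knockdown libraries lay below both controls. This was 68.4% of the control level, with a log2 fold change of -0.55 ± 0.08 (SE) and an interval from -0.75 to -0.34 (limma, Benjamini-Hochberg adjusted p = 0.0784). PKLR, the other pyruvate kinase gene, was in the list of other enzymes below and was chosen after its values were seen. PKLR was higher, at 147 and 131 TPM in shPHF8 against 115 and 109 TPM in shControl. Its log2 fold change was 0.31 ± 0.10 (SE), with an interval from 0.047 to 0.57 (limma, Benjamini-Hochberg adjusted p = 0.189).

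PKM transcripts carry either exon 9, which gives the M1 enzyme, or exon 10, which gives the M2 enzyme of embryonic and tumour cells. Both exons are 167 bases long, of which 105 are the same and 62 differ (62.9% identity). They lie on the minus strand of GRCh38 at chr15:72203022-72203188 and chr15:72202454-72202620, and are given here from the GENCODE transcripts because the isoform comparison rests on them. Capitals mark the bases that differ between the exons.
PKM exon 9: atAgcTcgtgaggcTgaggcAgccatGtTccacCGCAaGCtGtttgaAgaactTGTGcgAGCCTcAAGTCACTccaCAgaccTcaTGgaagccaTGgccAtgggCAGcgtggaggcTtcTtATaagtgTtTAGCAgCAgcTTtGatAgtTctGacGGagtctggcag
PKM exon 10: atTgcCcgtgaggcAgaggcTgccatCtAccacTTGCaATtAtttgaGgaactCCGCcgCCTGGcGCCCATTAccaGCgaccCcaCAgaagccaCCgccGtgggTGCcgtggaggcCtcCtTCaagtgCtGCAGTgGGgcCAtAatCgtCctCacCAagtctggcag

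The transcripts with exon 10, PKM-004 and PKM-202, summed to 70.9 and 92.7 TPM in shPHF8, against 171 and 124 TPM in shControl, without overlap. Those with exon 9, PKM-008, PKM-012, PKM-201 and PKM-007, summed to 79.7 and 47.3 TPM in shPHF8 against 39.9 and 83.7 TPM in shControl, and here the groups overlapped. The lower PKM total thus came with exon 10 transcripts below both controls in both knockdown libraries. As a share, exon 10 transcripts made up 46.4% and 65.3% of PKM in shPHF8 and 78.1% and 58.8% in shControl, so the shares overlapped. Single transcripts varied widely between libraries of a group. PKM-202 was at 27.5 and 3.23 TPM in shPHF8 against 55.3 and 40.4 TPM in shControl, and PKM-008 at 71.6 and 40.9 TPM in shPHF8 against 27.2 and 79.9 TPM in shControl. The short forms PKM-019 and PKM-020, which hold neither exon, summed to 2.18 and 1.95 TPM in shPHF8 against 8.04 and 3.58 TPM in shControl.

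**Figure D3:**
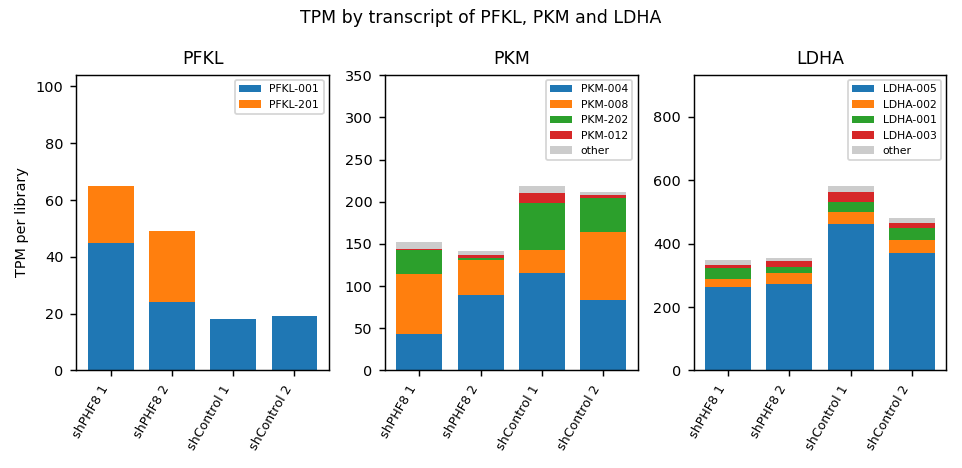
TPM per library (y axis) of PFKL, PKM and LDHA, stacked by transcript, with the 2 shPHF8 libraries left of the 2 shControl libraries. PFKL-201 is seen in the shPHF8 libraries and is listed at 0 in shControl, the PKM transcripts are divided differently in each library, and LDHA-005 makes up most of LDHA in all 4.

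ENO1, the main enolase gene, was at 2216 and 2174 TPM in shPHF8, against 1040.2 and 2273 TPM in shControl. Only shControl 1 stood apart, and without it the log2 fold change was -0.050 in place of 0.51 ± 0.39 (SE). GAPDH was at 945 and 759 TPM in shPHF8 against 738 and 807 TPM in shControl, PGAM1 at 298 and 292 TPM in shPHF8 against 258 and 309 TPM in shControl, and the neuronal-type enolase gene ENO2 at 18.1 and 12.4 TPM in shPHF8 against 14.9 and 15.04 TPM in shControl, all with overlap. PGK1, which forms the first ATP of the pathway, was at 186 TPM in both shPHF8 libraries, against 203 and 219.6 TPM in shControl. The PGK1 libraries did not overlap, and its log2 fold change of -0.18 ± 0.07 (SE) had an interval from -0.39 to 0.016.

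Of the lactate dehydrogenase genes, LDHA was lower and LDHB did not pass. LDHA (ENSG00000134333) encodes the subunit that favours the reduction of pyruvate to lactate. It was at 347 and 353 TPM in shPHF8, against 583 and 482 TPM in shControl, or 65.8% of the control level, without overlap. The log2 fold change of -0.60 ± 0.11 (SE) had an interval from -0.89 to -0.30 (limma, Benjamini-Hochberg adjusted p = 0.103). LDHB, the subunit of heart and erythroid cells, had a log2 fold change of -0.049 with an interval from -0.19 to 0.089. The ratio of LDHA to LDHB was 0.302 and 0.322 in shPHF8, against 0.510 and 0.409 in shControl, so LDHB was the more abundant subunit transcript in all 4 libraries.

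LDHA has 2 starts in the RefSeq promoter table. The 3 transcripts that begin nearer the downstream start, led by LDHA-005, summed to 265 and 274 TPM in shPHF8, against 464 and 370.3 TPM in shControl. The 7 that begin nearer the upstream start summed to 82.2 and 79.4 TPM in shPHF8 against 119 and 111 TPM in shControl. Transcripts of both starts therefore lay below both controls in both knockdown libraries, and LDHA-005 made up 75.8% and 77.0% of the gene in shPHF8 and 79.0% and 76.6% in shControl.

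PDK1 was higher and EGLN3 was lower in shPHF8. PDK1 (ENSG00000152256) phosphorylates and inactivates the pyruvate dehydrogenase complex. It was at 20.4 and 27.0 TPM in shPHF8, against 12.7 and 13.5 TPM in shControl, with both knockdown libraries above both controls. Its log2 fold change was 0.79 ± 0.19 (SE), with an interval from 0.28 to 1.30 (limma, Benjamini-Hochberg adjusted p = 0.134). The unadjusted threshold was missed without shPHF8 2, shControl 1 or shControl 2, where the log2 fold changes were 0.60, 0.75 and 0.83. EGLN3 (ENSG00000129521) is a prolyl hydroxylase that marks the hypoxia-inducible factors HIF for degradation in the presence of oxygen. It was at 4.284 and 5.999 TPM in shPHF8, against 13.5 and 16.8 TPM in shControl, without overlap. At 34.0% of the control level EGLN3 had the lowest ratio of the 46 genes, with a log2 fold change of -1.40 ± 0.24 (SE) and an interval from -2.05 to -0.76 (limma, Benjamini-Hochberg adjusted p = 0.0967). Most of it was EGLN3-001, at 3.16 and 4.61 TPM in shPHF8 against 12.002 and 14.18 TPM in shControl.

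LDHA, PDK1 and EGLN3 are among the enzyme genes known as HIF targets, and PDK1 was higher while LDHA and EGLN3 were lower. Their promoters are shown because ACGTG, one form of the core of the HIF binding element, can be looked for in them. Each runs from 250 bases before to 50 after a RefSeq start in GRCh38.p14, written along the gene's strand, and capitals mark ACGTG or its reverse complement CACGT. The upstream LDHA promoter lies at chr11:18394313-18394612 and the downstream one at chr11:18396101-18396400, both on the plus strand. The PDK1 promoter shown, of 2 in the table the one nearest the start of its most abundant transcript, lies at chr2:172555840-172556139 on the plus strand and the EGLN3 promoter at chr14:33951025-33951324 on the minus strand.
LDHA upstream promoter: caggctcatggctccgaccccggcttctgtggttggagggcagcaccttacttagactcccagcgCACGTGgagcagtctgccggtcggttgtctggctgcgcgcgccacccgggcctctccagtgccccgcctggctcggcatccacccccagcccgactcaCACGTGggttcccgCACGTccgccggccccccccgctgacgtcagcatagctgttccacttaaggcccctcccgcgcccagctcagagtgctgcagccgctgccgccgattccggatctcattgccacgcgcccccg
LDHA downstream promoter: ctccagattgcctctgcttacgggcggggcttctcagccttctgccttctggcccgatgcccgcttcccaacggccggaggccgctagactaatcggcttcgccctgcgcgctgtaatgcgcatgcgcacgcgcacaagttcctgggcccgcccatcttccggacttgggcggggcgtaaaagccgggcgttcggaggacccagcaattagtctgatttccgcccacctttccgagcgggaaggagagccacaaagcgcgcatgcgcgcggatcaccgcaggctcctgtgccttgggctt
PDK1 promoter: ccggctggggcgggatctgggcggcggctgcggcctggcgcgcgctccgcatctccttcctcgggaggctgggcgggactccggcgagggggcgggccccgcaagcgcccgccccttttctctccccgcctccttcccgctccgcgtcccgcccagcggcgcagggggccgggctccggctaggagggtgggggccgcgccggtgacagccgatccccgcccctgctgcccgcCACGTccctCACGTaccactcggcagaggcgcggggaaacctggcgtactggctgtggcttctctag
EGLN3 promoter: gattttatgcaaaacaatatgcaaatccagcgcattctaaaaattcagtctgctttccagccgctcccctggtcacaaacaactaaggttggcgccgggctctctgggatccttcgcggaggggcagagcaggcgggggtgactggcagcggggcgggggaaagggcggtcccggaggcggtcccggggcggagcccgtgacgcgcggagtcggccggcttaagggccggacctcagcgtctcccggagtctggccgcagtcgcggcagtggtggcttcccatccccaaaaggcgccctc

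The upstream LDHA promoter held 5 matches, counting CACGTG, which occurs 2 times, once on each strand, and the PDK1 promoter shown held 2, while the other PDK1 promoter held 0. The downstream LDHA promoter and the EGLN3 promoter held no ACGTG in this window. GCGTG, the other form of the core, was not counted, and its reverse complement CACGC occurs in both LDHA promoters printed. Of 45 enzyme genes matched to a promoter, taken at the start nearest the most abundant transcript, 14 (31.1%) held ACGTG on either strand, against 7518 of 35116 promoters in the table (21.4%). Each enzyme gene entered with the promoter at that start only. The 35116 promoters include several for some genes and were not limited to genes expressed here. The shares are therefore not matched, and whether ACGTG is more frequent in the enzyme genes was not tested. The motif stood in 2 of the 7 genes that were higher, 2 of the 6 that were lower and 10 of the 32 others. For some genes the window does not cover the start of the most abundant transcript. The RefSeq start used lay 1883 bases from it for IDH2, 1658 for PGAM1, 1337 for GAPDH and 594 for DLAT. CACGTG, which contains ACGTG on both strands, stood in 3 of the 45 (6.67%), against 7.26% of the same 35116 unmatched promoters.

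Of the pyruvate dehydrogenase complex, which PDK1 acts on, 4 genes were among the enzyme genes, and none of these differed beyond the library spread. PDHA1, the catalytic subunit that PDK1 phosphorylates, was at 171 and 173 TPM in shPHF8, against 173 and 163 TPM in shControl. PDHB was at 39.9 and 52.5 TPM in shPHF8 against 44.0 and 39.0 TPM in shControl. DLAT, the acetyltransferase core, was at 158 and 118 TPM in shPHF8 against 159 and 151 TPM in shControl, and DLD at 219.7 and 236 TPM in shPHF8 against 271 and 214 TPM in shControl. These 4 overlapped between the groups, and their intervals together spanned -0.63 to 0.62 on the log2 scale. PDHX, another gene of the complex, was in the list of other enzymes below and was chosen after its values were seen. PDHX was at 88.4 and 60.4 TPM in shPHF8 against 56.0 and 46.7 TPM in shControl, without overlap. Its log2 fold change of 0.51 ± 0.22 (SE) had an interval from -0.11 to 1.12, so PDHX did not pass the unadjusted threshold.

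In the pentose phosphate pathway PGD was lower and the other 5 genes did not pass. PGD (ENSG00000142657) encodes 6-phosphogluconate dehydrogenase, one of the NADPH-forming enzymes of the oxidative branch. It was at 585 and 572 TPM in shPHF8, against 700.3 and 751 TPM in shControl, or 79.8% of the control level, without overlap. PGD had a log2 fold change of -0.32 ± 0.06 (SE), with an interval from -0.49 to -0.16 (limma, Benjamini-Hochberg adjusted p = 0.103). The lactonase gene PGLS, which acts just before it, was at 54.3 and 52.0 TPM in shPHF8 against 37.3 and 62.1 TPM in shControl.

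The non-oxidative branch interconverts sugar phosphates. TKT, the transketolase gene, was at 209 and 194 TPM in shPHF8 against 222 and 235 TPM in shControl, without overlap and with an interval of the log2 fold change from -0.39 to 0.034. TALDO1, the transaldolase gene, was at 503 and 449 TPM in shPHF8 against 426 and 471 TPM in shControl, with overlap. RPIA, the ribose 5-phosphate isomerase gene, was at 81.1 and 82.6 TPM in shPHF8 against 71.7 and 78.3 TPM in shControl. RPE, the epimerase gene, was at 75.9 and 80.1 TPM in shPHF8 against 32.8 and 70.1 TPM in shControl, so shControl 1 was far below the other 3 libraries, and without it the log2 fold change was 0.15 in place of 0.69 ± 0.38 (SE).

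Of the 14 citrate cycle genes, counting the cytosolic enzymes IDH1 and MDH1, 5 (35.7%) were higher and 1 (7.14%) was lower, where 9.90% of all genes tested were higher and 12.1% lower. In 9 of them (64.3%) the shPHF8 libraries lay above both controls while in 3 (21.4%) they lay below, where this held for 26.0% and 29.3% of all genes. The 9 include CS, high only in shPHF8 1, and IDH3A, high only in shPHF8 2. In shPHF8 1 IDH3A was at 9.01 TPM, beside 8.93 TPM in shControl 1. The median log2 fold change was 0.28 in this group, against 0.064 over all 46 genes and -0.018 over all genes tested. Their summed level was 2519 and 2315 TPM in shPHF8, against 2175 and 2196 TPM in shControl, and without CS it was 2227 and 2195 TPM in shPHF8 against 2078 and 2093 TPM in shControl. The groups did not overlap in either sum.

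The NADP-dependent isocitrate dehydrogenase genes differed in opposite directions. IDH1 (ENSG00000138413), the cytosolic and peroxisomal NADP-dependent enzyme, was at 206 and 208 TPM in shPHF8, against 314 and 256 TPM in shControl. Its log2 fold change was -0.45 ± 0.12 (SE), with an interval from -0.77 to -0.13 (limma, Benjamini-Hochberg adjusted p = 0.151). IDH2 (ENSG00000182054), its mitochondrial counterpart, was at 83.4 and 80.8 TPM in shPHF8, against 65.3 and 64.7 TPM in shControl. The IDH2 log2 fold change was 0.33 ± 0.08 (SE), with an interval from 0.10 to 0.56 (limma, Benjamini-Hochberg adjusted p = 0.146). Neither gene overlapped between the groups, and the ratio of IDH1 to IDH2 was 2.47 and 2.58 in shPHF8 against 4.81 and 3.96 in shControl. Without shPHF8 1 or without shPHF8 2 both genes missed the unadjusted threshold, with log2 fold changes of -0.44 and -0.46 for IDH1 and 0.31 and 0.36 for IDH2.

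The NAD-dependent enzyme of the cycle is built from the products of IDH3A, IDH3B and IDH3G. IDH3G (ENSG00000067829), a regulatory subunit, was at 125 and 100.4 TPM in shPHF8, against 70.9 and 76.6 TPM in shControl, without overlap. Its log2 fold change was 0.60 ± 0.14 (SE), with an interval from 0.22 to 0.97 (limma, Benjamini-Hochberg adjusted p = 0.130), and without shControl 1 it missed the unadjusted threshold at 0.54. Part of the spread lay in transcript IDH3G-006, at 35.4 and 0 TPM in shPHF8 and 12.02 and 0 TPM in shControl, whereas IDH3G-005 was at 74.5 and 81.5 TPM in shPHF8 against 48.4 and 59.8 TPM in shControl. IDH3B was at 58.0 and 51.2 TPM in shPHF8 against 61.3 and 61.5 TPM in shControl. The catalytic subunit IDH3A was at 9.01 and 21.9 TPM in shPHF8 against 8.93 and 7.71 TPM in shControl, and without shPHF8 2 its log2 fold change was 0.11 in place of 0.70 ± 0.44 (SE). The estimate of IDH3B was -0.17 ± 0.11 (SE), so the 3 subunit genes did not share a sign.

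Succinyl-CoA synthetase pairs a common subunit, SUCLG1, with SUCLA2 in the ATP-forming enzyme or SUCLG2 in the GTP-forming one. SUCLG1 (ENSG00000163541) was at 207 and 227 TPM in shPHF8, against 167 and 168 TPM in shControl, with a log2 fold change of 0.37 ± 0.08 (SE) (limma, Benjamini-Hochberg adjusted p = 0.121). SUCLA2 (ENSG00000136143) was at 66.5 and 64.8 TPM in shPHF8, against 55.5 and 50.3 TPM in shControl, with a log2 fold change of 0.31 ± 0.10 (SE) (limma, Benjamini-Hochberg adjusted p = 0.201). Both genes were without overlap between the groups. SUCLG2 was at 67.4 and 64.1 TPM in shPHF8 against 73.7 and 72.0 TPM in shControl, with an interval of the log2 fold change from -0.39 to 0.093. The ratio of SUCLA2 to SUCLG2 was thus 0.987 and 1.01 in shPHF8, against 0.753 and 0.698 in shControl. SUCLG1 missed the unadjusted threshold without shPHF8 2 at 0.30, and SUCLA2 without shPHF8 1, shPHF8 2 or shControl 2 at 0.29, 0.33 and 0.24.

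Of the malate dehydrogenase genes, MDH1 was higher and MDH2 did not pass. MDH1 (ENSG00000014641), the cytosolic enzyme of the malate-aspartate shuttle, was at 293 and 292 TPM in shPHF8, against 236 and 238 TPM in shControl. The SD over the 2 libraries was 0.900 TPM in shPHF8 and 1.17 TPM in shControl, and the log2 fold change was 0.30 ± 0.06 (SE), with an interval from 0.14 to 0.46 (limma, Benjamini-Hochberg adjusted p = 0.108). MDH2, the mitochondrial enzyme, was at 543 and 524 TPM in shPHF8 against 522 and 589.7 TPM in shControl, with overlap. The ratio of MDH1 to MDH2 was 0.539 and 0.557 in shPHF8, against 0.452 and 0.403 in shControl.

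**Figure D4:**
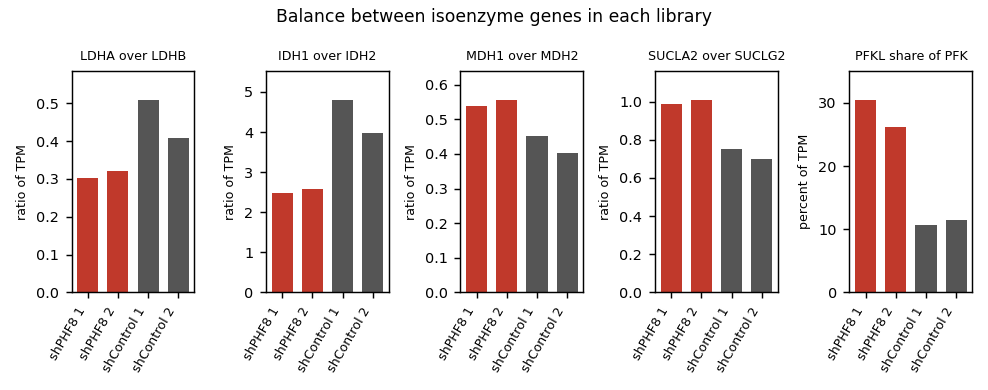
Ratio of TPM between paired isoenzyme genes, and PFKL as a percent of the TPM of PFKL, PFKM and PFKP, in each library (y axes start at 0), with shPHF8 left of shControl. LDHA over LDHB and IDH1 over IDH2 lie lower in both shPHF8 libraries, and the other 3 measures lie higher. Not every pair is shown. Of those left out, ENO1 over ENO2 and ALDOA over ALDOC overlapped between the groups, and HK2 over HK1 did not.

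The remaining cycle genes did not pass. FH, the fumarase gene, was at 387 and 397 TPM in shPHF8, against 359.7 and 348 TPM in shControl, without overlap and with an interval of the log2 fold change from -0.010 to 0.31. OGDH, the first subunit of the oxoglutarate dehydrogenase complex, was at 88.8 and 78.7 TPM in shPHF8 against 63.7 and 75.5 TPM in shControl, and its partner DLST was at 92.5 and 84.6 TPM in shPHF8 against 79.9 and 84.7 TPM in shControl. CS, the citrate synthase gene, was at 292 and 119.9 TPM in shPHF8 against 97.7 and 104 TPM in shControl. Only shPHF8 1 was high, and without that library the CS log2 fold change was 0.25 in place of 0.89 ± 0.45 (SE).

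Around the cycle, ACLY was lower and ME2 and PC lay below the controls without passing. ACLY (ENSG00000131473), the ATP citrate lyase gene, was at 171 and 172 TPM in shPHF8, against 243 and 229 TPM in shControl, or 72.7% of the control level. ACLY had a log2 fold change of -0.46 ± 0.07 (SE), with an interval from -0.64 to -0.27 (limma, Benjamini-Hochberg adjusted p = 0.0877). The groups did not overlap in the gene total but did in ACLY-001 and ACLY-201. ACLY-001 was at 68.9 and 3.43 TPM in shPHF8 and 127 and 0.925 TPM in shControl, and ACLY-201 at 65.5 and 81.7 TPM in shPHF8 against 70.6 and 144 TPM in shControl, so the division between transcripts differed by library number within each group. ME2, the mitochondrial malic enzyme gene, was at 13.7 and 14.9 TPM in shPHF8 against 17.9 and 16.7 TPM in shControl, with an interval of the log2 fold change from -0.64 to 0.13.

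Transcript rows were also tested one by one. Of the 197 rows, 186 were tested. At an unadjusted limma p under 0.05, 9 were higher and 11 lower, where 4.91% of all 30266 transcripts tested were higher and 5.38% lower. Together they were 10.8% of the rows, against 10.3% of all transcripts. None of the 186 passed Benjamini-Hochberg adjustment, which 0.00330% of all transcripts did. Isoform shares, the log2 ratio of a transcript to the rest of its gene, were tested for 179 rows, of which 7 were higher and 5 lower, where 3.36% of all shares were higher and 3.28% lower. Together these were 6.70% of the rows, against 6.64% of all shares, and none passed adjustment, as over all shares (0%). The rows with the smallest share p were PFKL-001, PFKL-201 and OGDH-005, the last chosen after its values were seen, at 9.68 and 5.17 TPM in shPHF8 against 0.179 and 0.256 TPM in shControl.

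Several genes held a transcript that was abundant or scarce in 1 library. HK1-001 was at 7.21 and 348 TPM in shPHF8 and 10.9 and 8.47 TPM in shControl, with HK1-201 at 581 and 264 TPM in shPHF8 against 570.3 and 551 TPM in shControl, so HK1-001 was high and HK1-201 low in shPHF8 2 only. DLAT-002 was likewise at 5.89 and 41.7 TPM in shPHF8 and 4.33 and 4.23 TPM in shControl, and IDH3A-006 at 0.0102 and 13.2 TPM in shPHF8 and listed at 0 in both shControl libraries. In CS the excess of shPHF8 1 lay in CS-002, at 202 and 14.4 TPM in shPHF8 against 37.8 and 11.3 TPM in shControl. The low shControl 1 value of ENO1 lay in ENO1-001, at 2187 and 2152 TPM in shPHF8 against 918 and 2240.4 TPM in shControl, and that of RPE lay in RPE-002, at 43.3 and 42.1 TPM in shPHF8 against 3.25 and 40.2 TPM in shControl. RPE-001 was at 4.41 and 3.54 TPM in shPHF8 against 13.9 and 11.5 TPM in shControl, the reverse of the gene total.

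**Figure D5:**
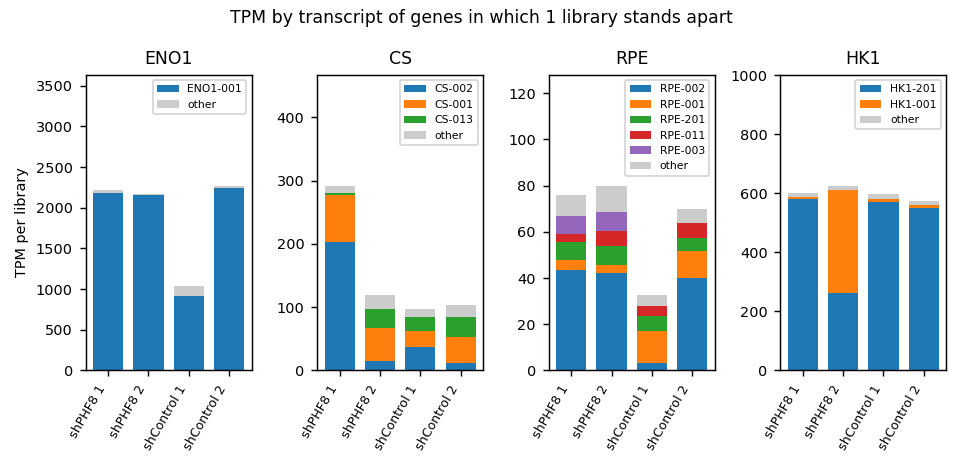
TPM per library (y axis) of ENO1, CS, RPE and HK1, stacked by transcript, with the 2 shPHF8 libraries left of the 2 shControl libraries. ENO1 and RPE are low in shControl 1, CS is high in shPHF8 1, and HK1-001 is high and HK1-201 low in shPHF8 2.

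Other enzymes of the same pathways were examined from a list of 38, of which 24 were in the table and tested. At an unadjusted p under 0.05, 5 were higher and 4 were lower, with a median log2 fold change of 0.038. SDHA, the flavoprotein of succinate dehydrogenase, was higher at 92.2 and 78.9 TPM in shPHF8 against 64.6 and 53.7 TPM in shControl (log2 fold change 0.53 ± 0.14, SE, limma, Benjamini-Hochberg adjusted p = 0.161). The other succinate dehydrogenase genes, chosen after their values were seen, did not pass the threshold. SDHB overlapped between the groups. SDHC, at 39.5 and 35.9 TPM in shPHF8 against 43.3 and 42.8 TPM in shControl, lay below both controls. So did SDHD, at 293 and 256 TPM in shPHF8 against 381 and 313 TPM in shControl. The transketolase-like gene TKTL1 was higher at 4.52 and 3.03 TPM in shPHF8 against 0.529 and 0.647 TPM in shControl.

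Of 18 carriers of glucose, lactate and citrate, 11 were tested, and 2 were higher and 2 lower. SLC25A1, which exports citrate from the mitochondrion to the cytosol, was higher at 97.7 and 88.3 TPM in shPHF8 against 44.9 and 52.8 TPM in shControl (log2 fold change 0.92 ± 0.13, SE, limma, Benjamini-Hochberg adjusted p = 0.0782). SLC25A10, the dicarboxylate carrier, was higher at 56.4 and 57.7 TPM in shPHF8 against 37.4 and 35.8 TPM in shControl. SLC16A1, a lactate carrier of the plasma membrane, was lower at 184 and 157 TPM in shPHF8 against 256 and 245 TPM in shControl (log2 fold change -0.55 ± 0.10, SE, limma, Benjamini-Hochberg adjusted p = 0.103). SLC2A1, the glucose carrier GLUT1, was lower at 101 and 106 TPM in shPHF8 against 125 and 126 TPM in shControl. The citrate carrier and the citrate-splitting enzyme ACLY thus had opposite signs.

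Of 12 regulators of glycolytic flux, 7 were tested, and 1 was higher and 2 were lower. ARRDC4, an arrestin-domain gene induced by glucose, was higher at 74.29 and 74.97 TPM in shPHF8 against 50.6 and 48.5 TPM in shControl. MLXIPL, the glucose-responsive transcription factor ChREBP, was lower at 3.54 and 0.799 TPM in shPHF8 against 11.9 TPM in each shControl library, and PFKFB2, which makes the phosphofructokinase activator fructose 2,6-bisphosphate, was lower at 43.7 and 42.1 TPM in shPHF8 against 58.9 and 77.9 TPM in shControl. Of 26 gene symbols of the HIF pathway and its common targets, 19 were tested, and 2 were higher and 2 lower, with a median log2 fold change of -0.12. ERO1L and ERO1A in that list name the same gene. It mixes HIF subunits, their regulators and targets, so the median does not describe the targets alone. The higher ones were ARNT, the partner of HIF, and the histone demethylase gene KDM3A, and the lower ones were VHL, the ligase subunit that recognises hydroxylated HIF, and the stress-induced gene DDIT4. HIF1A itself, chosen after its values were seen, was at 39.3 and 58.1 TPM in shPHF8 against 43.69 and 49.99 TPM in shControl, with overlap. The shares of these 4 lists at the unadjusted threshold were 37.5%, 36.4%, 42.9% and 21.1% in the order given, against 22.0% of all genes.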

How the data were processed

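RNA-seq of 4 K562 libraries was analysed, 2 with shPHF8 and 2 with shControl, with groups taken from the labels. The deposited table holds TPM for 32551 transcripts, 1 column per library, each summing to 1000000. The submitters' processing notes name StringTie 1.2.3, HISAT2 2.0.4 and hg19. Tool roles, annotation, strandedness and depth were not given in the sources used here, so no counting error is known and precision rests on the spread between libraries. A further 4 columns of per-library values carry no unit and were not used.

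TPM were summed per gene name and tested as log2(TPM + 1), which understates changes of low genes, with limma 3.58.1 in R 4.3.3 (empirical Bayes with a trend, two-sided, Benjamini-Hochberg over all features with a mean of at least 1 TPM, threshold 0.05). Transcripts and isoform shares were fitted the same way over 30266 and 26675 rows. All 4 libraries entered each fit without covariates. An exact permutation test of 2 against 2 cannot go below p = 0.333 and was not used. The limma steps were tested on simulated data, with spreads reassigned at random between features and planted changes larger than most of those reported here. That test does not cover smaller changes. Every enzyme gene may be named, with all PKM and PFKL transcripts, other transcripts with at least 20% of their gene in a library, and at most 4 genes with the smallest unadjusted p per further list, of which some are not reported here. The members and lists were chosen with earlier results of these data known.

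Exon classes and transcript starts came from GENCODE 29 (GRCh38) by transcript identifier, and promoters from RefSeq (GRCh38.p14). No coordinates of the deposited table were used. Further steps used matplotlib 3.10.9, pandas 2.3.3 and Python 3.11.15. Alternatives were a pseudocount of 0.1, a minimum mean of 5 TPM or none, 3 rescalings, no trend, a replicate block and leaving out each library.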

Additional observations from a re-analysis of the deposited data

How the results depend on the processing

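Over 12 alternatives (pseudocount, filters, 3 rescalings, no trend, replicate block, each library left out) the 13 genes past the unadjusted limma threshold kept their direction, and PFKL, PKM, LDHA, PGD, MDH1, ACLY and EGLN3 stayed past it in all 12. The adjusted limma p with Benjamini-Hochberg adjustment ranged from 0.0651 to 0.275 for PFKL. No rescaling turned the sign of an enzyme gene or moved the median of all genes by 0.1. Over all genes, quantile normalization called 17 genes higher and 20 lower after adjustment, none of them an enzyme gene. Leaving out 1 library gave 5 to 8 enzyme genes higher and 5 to 8 lower, with a median log2 fold change from -0.027 (without shControl 1) to 0.047. Over all genes it gave 592 (without shPHF8 2) to 1118 higher, with 646 without shPHF8 1, and 903 to 1092 lower, against 1086 and 1328 with all libraries. Fewer samples leave fewer residual degrees of freedom, and the lone library left in a group takes its spread from the other group.

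With the replicate block, 6 enzyme genes were higher and 6 lower (26.1% together), beside 17.8% of all genes (888 higher and 1061 lower). Member transcripts lower at an unadjusted p under 0.05 were 6 in place of 11, as they were with no trend (6). The share over all transcripts at these settings is not given here, and the cause was not tested. SUCLA2 missed the unadjusted threshold with the block and with no trend. Deviations of same-numbered libraries correlated at r = -0.029 over 10972 genes. The labels name no pairing, and a correlation over all genes cannot show whether same-numbered libraries share an origin, which was not tested.

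Some enzyme genes not past the unadjusted threshold had a larger log2 fold change, in either direction, on leaving out 1 library. Without shControl 1 it was -0.45 for HK2 and -0.24 for PGK1. Without shControl 2 it was 1.08 for ENO1, 0.50 for PGLS and 1.23 for RPE. It was -0.65 for PFKM, -0.395 for DLAT and 1.30 for IDH3A without shPHF8 1, and 0.29 for GAPDH and 1.53 for CS without shPHF8 2. With all libraries kept, PGK1 passed the unadjusted threshold under quantile normalization and FH under median-of-ratios scaling. At each of these settings 30.4% of the enzyme genes passed, beside 21.6% and 21.7% of all genes in that order.

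Of 552 single-gene values, 16 in 14 genes changed sign, all on leaving out 1 library and none of a gene past the threshold. Over the 4 such fits the log2 fold change ranged from -0.088 (without shControl 1) to 0.30 for GPI, from -0.028 (without shPHF8 2) to 0.078 for ALDOA, from -0.13 (without shControl 1) to 0.26 for ALDOC, from -0.024 (without shPHF8 1) to 0.29 for GAPDH and from -0.064 (without shControl 1) to 0.19 for PGAM1. It ranged from -0.050 (without shControl 1) to 1.08 for ENO1, from -0.25 (without shPHF8 1) to 0.26 for ENO2, with -0.0034 without shControl 1, from -0.0042 (without shControl 2) to 0.076 for PDHA1, from -0.054 (without shPHF8 2) to 0.33 for PDHB and from -0.22 (without shControl 1) to 0.50 for PGLS. For genes with a negative estimate it ranged from -0.076 to 0.039 (without shControl 2) for TPI1, with 0.015 without shPHF8 2, from -0.40 to 0.028 (without shPHF8 2) for DLAT, from -0.25 to 0.090 (without shControl 1) for DLD and from -0.14 to 0.033 (without shControl 2) for MDH2. Depth is unknown, and n = 2 per group limits every estimate.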
